A study of Mus musculus with 2 samples.

Results

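The genes described here encode the whey and other soluble secreted proteins of mouse milk together with both subunits of lactose synthase: *Wap*, *Lalba*, *B4galt1*, *Glycam1*, *Cel*, *Folr1* and *Ltf*. They were picked by symbol, 7 of the 25810 genes listed in the deposited files, and all 7 were found and passed the minimum of 1 RPM (reads scaled to the mapped reads of each library) in at least one of the libraries. The study asked how loss of *Igfbp7*, which encodes a secreted protein that binds insulin-like growth factors, changes the transcriptome of lactating mammary epithelial cells. Each genotype, WT and *Igfbp7*-/-, gave 1 library of poly(A) RNA from the inguinal glands at lactation day 3. In both, cells carrying CD45, CD31 or Ter119 (leukocytes, endothelial cells and erythroid cells) had been removed with magnetic beads according to the methods, while the labels name CD35 where the methods name CD31. The mutant allele, made in embryonic stem cells, lacks exon 1 in every cell of the animal, so that the loss is not limited to the mammary gland. The labels state a C57BL/6 background for both genotypes, and the methods state that the knockout was made on CD1. Neither gives the age of the dams or the number of animals behind a library.

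In milk the soluble proteins left after the caseins are removed form the whey. Whey acidic protein (WAP) is a main whey protein of rodents, and alpha-lactalbumin, the product of *Lalba*, binds the Golgi galactosyltransferase encoded by *B4galt1* and switches its acceptor from N-acetylglucosamine to glucose, so that lactose is made. Prolactin acting through STAT5, together with glucocorticoids, drives transcription of many of these genes in the secretory luminal cell, and lactose draws water into the milk by osmosis.

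The WT library held 34327854 mapped reads and the *Igfbp7*-/- library 35016847, of which 82.3% and 72.3% fell on listed genes. Both totals were inferred from the deposited values, as the median over genes of the count divided by the RPM. *Igfbp7* itself had 5224 reads in WT and 37 in *Igfbp7*-/-. Epithelial keratin transcripts were abundant in both libraries (*Krt18*, 250.4 RPM in WT against 1174 RPM in *Igfbp7*-/-). The transcript of CD31, *Pecam1*, was still present at 322.5 and 88.9 RPM. With 1 library per genotype there were no replicates, so the genotypes could be compared only as 1 library against the other, without a test. Each ratio below is *Igfbp7*-/- to WT in deposited RPM after 0.1 RPM was added to both values, with a 95% Clopper-Pearson interval on read pairs that covers counting error only, since PCR copies are not independent molecules and the spread between animals was not measured. A gene was counted as higher or lower in *Igfbp7*-/- once it differed by 1.5 times or more, the fold used by the study. Paired levels in brackets give WT first and *Igfbp7*-/- second.

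Of the 7 genes, 5 were lower in *Igfbp7*-/- (*Wap*, *Glycam1*, *Cel*, *Folr1* and *Lalba*), 1 was higher (*Ltf*) and 1 stayed within 1.5 times (*B4galt1*). The background was 23.0% lower and 21.4% higher among all 14026 genes that passed the same minimum, called measured below, so that 48.2% of all calls were higher. With reads on listed genes as the denominator that share was 62.2%, and without the 20 most abundant genes it was 37.6%, while the 7 genes kept their directions. The median log2 ratio of the 7 genes was -1.15, and that of all 14026 genes was 0.035 with quartiles of -0.52 and 0.51. Together the 7 genes took 3.12% of the mapped reads in WT (95% Wilson interval on read pairs 3.11 to 3.13%) and 1.22% in *Igfbp7*-/- (1.22 to 1.23%). In bulk RNA, fewer secretory cells and less RNA per cell cannot be told apart. The counts of these 7 genes ran from 2187 to 539117 reads, far above the 3 reads taken as the floor (0.0874 RPM in WT and 0.0857 RPM in *Igfbp7*-/-).

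**Figure D1:**
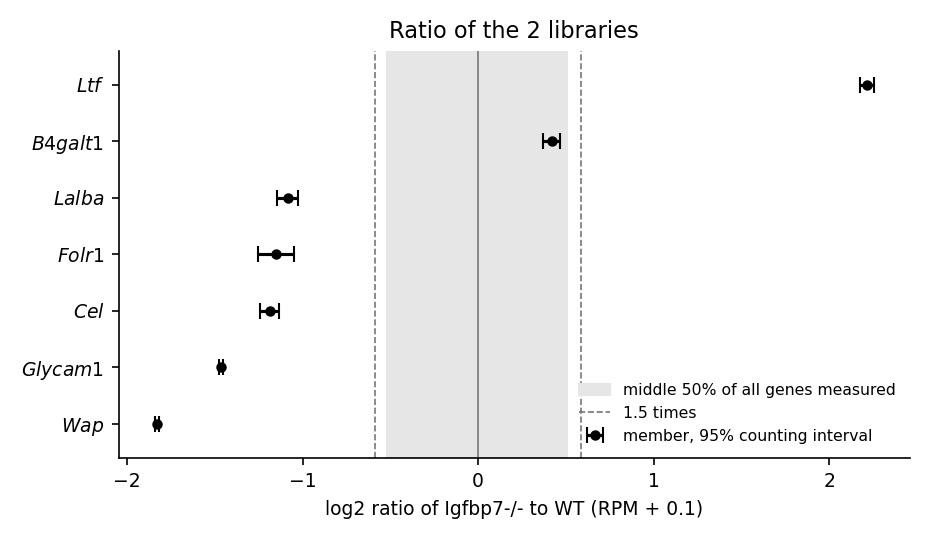
Log2 ratio of *Igfbp7*-/- to WT in RPM with 0.1 added (x axis) for the 7 genes, with bars for the 95% Clopper-Pearson counting interval, the middle 50% of all 14026 genes measured in grey and the 1.5-fold limits as dashed lines. *Wap*, *Glycam1*, *Cel*, *Folr1* and *Lalba* lie between -1.83 and -1.08, *B4galt1* lies inside the limits at 0.42 and *Ltf* at 2.21.

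*Wap* lies on the minus strand of chromosome 11 (chr11:6531490-6538652 in NCBIM37, the build also called mm9) and has 4 exons in its annotated transcript Wap-003. It had 471353 reads in WT (13731 RPM) and 135358 in *Igfbp7*-/- (3866 RPM). The *Igfbp7*-/- library was the low one by 3.55 times, a log2 ratio of -1.83 (interval -1.84 to -1.82). This was the lowest ratio among the 7 genes and stood at the 4.88th percentile of the ratios of all genes measured. *Glycam1* encodes a mucin-like glycoprotein of milk, which lymph node endothelium also makes as a ligand of L-selectin. It has 4 exons on the minus strand of chromosome 15 (chr15:103393193-103395509). It had 539117 reads in WT (15705 RPM) and 199129 in *Igfbp7*-/- (5687 RPM), so that it was lower in *Igfbp7*-/- by 2.76 times (log2 ratio -1.47, -1.48 to -1.46). The log2 ratios of *Wap* and *Glycam1* differed by -0.36 (-0.38 to -0.35), which is more than counting error.

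Scaled for transcript length (RPKM, RPM per kilobase of transcript), *Glycam1* and *Wap* held the second and the third place among protein-coding genes in both libraries. In WT they were nearly level, with 25128 RPKM for *Glycam1* and 24432 RPKM for *Wap*, a ratio of 1.03 (1.02 to 1.03). In *Igfbp7*-/- the ratio was 1.32 (1.31 to 1.34), with 9099 and 6878 RPKM. Both genes made up 94.3% of the reads on the 7 genes in WT (94.2 to 94.3%) and 78.1% in *Igfbp7*-/- (77.9 to 78.2%).

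The 250 bases before the start of transcription are shown for *Wap*, *Glycam1* and *Lalba*, 3 of the 5 genes that were lower, and for contrast for *Ltf*, which was higher. They are RefSeq promoter windows that matched the NCBIM37 genome exactly at 1 place each, written 5′ to 3′ on the strand of the gene. The capitals mark matches to TTCNNNGAA, the motif of STAT5, or TTGCNNAA, a motif like that of C/EBP factors, searched on both strands.
Wap promoter, chr11:6538653-6538902, minus strand: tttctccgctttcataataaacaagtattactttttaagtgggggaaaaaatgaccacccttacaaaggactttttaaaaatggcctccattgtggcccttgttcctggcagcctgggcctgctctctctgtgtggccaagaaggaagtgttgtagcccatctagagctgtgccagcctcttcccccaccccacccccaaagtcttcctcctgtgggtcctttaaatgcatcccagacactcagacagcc
Glycam1 promoter, chr15:103395513-103395762, minus strand: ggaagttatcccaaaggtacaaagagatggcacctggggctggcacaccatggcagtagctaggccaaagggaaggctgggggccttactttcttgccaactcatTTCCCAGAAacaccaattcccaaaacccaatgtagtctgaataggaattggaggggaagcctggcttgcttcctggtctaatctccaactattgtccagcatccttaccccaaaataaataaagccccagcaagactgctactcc
Lalba promoter, chr15:98313115-98313364, minus strand: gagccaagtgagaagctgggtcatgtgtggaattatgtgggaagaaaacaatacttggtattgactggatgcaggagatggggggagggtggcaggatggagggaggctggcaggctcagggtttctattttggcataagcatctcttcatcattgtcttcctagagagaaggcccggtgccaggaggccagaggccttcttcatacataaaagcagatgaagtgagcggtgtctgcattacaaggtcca
Ltf promoter, chr9:110921546-110921795, plus strand: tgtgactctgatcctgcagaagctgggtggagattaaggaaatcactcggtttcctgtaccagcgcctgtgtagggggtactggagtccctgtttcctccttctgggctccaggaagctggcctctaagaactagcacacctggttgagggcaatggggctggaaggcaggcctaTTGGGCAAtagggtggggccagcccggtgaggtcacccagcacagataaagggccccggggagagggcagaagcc

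The *Glycam1* window held 1 STAT5-type match, TTCCCAGAA, 145 to 137 bases before the start, and the *Ltf* window held TTGGGCAA, a C/EBP-like match on the opposite strand, 75 to 68 bases before the start. Those of *Wap* and *Lalba* held neither motif, and the *Cel* window held none either. In the *B4galt1* window TTCCGCGAA stood 99 to 91 bases before the start. Of 32851 mouse promoter windows of the same length, 7.02% held TTCNNNGAA and 9.56% held TTGCNNAA. The letters TGTTCT (a core of the glucocorticoid receptor element, in 16.1% of all windows) and TATAAA (in 12.4%) were found in none of the 6 windows. The windows differed in base composition, with a GC content from 49.6% for *Wap* and *Glycam1* to 66.4% for *B4galt1*. A match is a description of the letters and says nothing of binding in these cells.

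**Figure D2:**
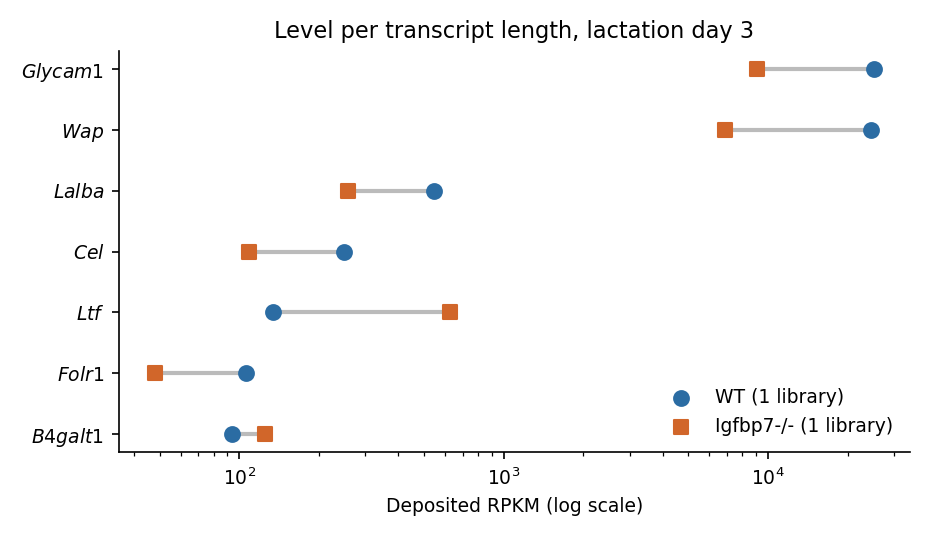
Deposited RPKM (x axis, log scale) of the 7 genes in the WT library (blue circles) and the *Igfbp7*-/- library (orange squares), 1 library each. *Glycam1* and *Wap* stand far to the right of the other 5 genes in both libraries, and *Ltf* moves from 134.6 to 624.2 RPKM while *Lalba* moves from 547.6 to 258.1.

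The subunits of lactose synthase did not move together. *Lalba*, the regulatory subunit, has 4 exons on the minus strand of chromosome 15 (chr15:98310831-98313114). It had 13780 reads in WT (401.4 RPM) and 6626 in *Igfbp7*-/- (189.2 RPM), lower by 2.12 times (log2 ratio -1.08, -1.15 to -1.03). *B4galt1*, the catalytic subunit, which also adds galactose to glycoproteins in most cells, has 6 exons on the minus strand of chromosome 4 (chr4:40751635-40801038). It had 12839 reads in WT (374.0 RPM) and 17497 in *Igfbp7*-/- (499.7 RPM), a ratio of 1.34 (log2 ratio 0.42, 0.37 to 0.46), within the 1.5-fold limit. The *B4galt1* call rested on the scaling. With the reads on listed genes as the denominator in place of all mapped reads its log2 ratio was 0.61, past the limit.

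Per length, *Lalba* stood 5.82 times above *B4galt1* in WT (547.6 against 94.1 RPKM) and 2.05 times above it in *Igfbp7*-/- (258.1 against 125.7 RPKM). The *Lalba* to *B4galt1* read ratio was thus 2.83 times lower in *Igfbp7*-/-, a log2 change of -1.50 (-1.58 to -1.43, normal approximation on the log of Poisson read pairs), and this value is independent of how the libraries are scaled.

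A list of 15 genes was drawn up around the supply of glucose and UDP-galactose to lactose synthase. It also holds genes of nucleotide metabolism that do not themselves supply these substrates, such as *Nudt14* and *Cant1*. All 15 were measured at 1 RPM or more in either library. Of them 13 stayed within 1.5 times, 1 was higher and 1 was lower, with a median log2 ratio of -0.039. The lower gene was *Pgm1*, a phosphoglucomutase (46.6 and 26.8 RPM, log2 ratio -0.80). The higher gene, *Slc2a8*, a glucose transporter, reached only 4.998 RPM and lies outside the rule for named genes. The main glucose transporter of the gland, *Slc2a1*, had 113.4 and 126.2 RPM (0.15), *Hk2* (hexokinase) 100.6 and 122.3 RPM (0.28), *Ugp2*, which makes UDP-glucose, 59.9 and 67.4 RPM (0.17), and *Slc35a2*, which carries UDP-galactose into the Golgi, 15.002 and 19.4 RPM (0.37). Summed over the list, WT had 570.1 RPM and *Igfbp7*-/- 576.2 RPM.

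The 6 other beta-1,4-galactosyltransferases were all above 1 RPM in one library. Of these 2 were lower and none higher, against 23.0% lower and 21.4% higher among all genes measured. *B4galt5*, which acts mainly on glycolipids, was lower (72.5 and 46.0 RPM, log2 ratio -0.65) in deposited RPM, and so was *B4galt4* (5.91 and 1.999 RPM, -1.52). *B4galt3* (32.7 and 43.1 RPM, 0.40), *B4galt6* (29.8 and 21.9 RPM, -0.45), *B4galt7* (6.32 and 5.40 RPM, -0.22) and *B4galt2* (1.98 and 1.80 RPM, -0.13) stayed within 1.5 times. These calls depended on the scaling: with reads on listed genes as the denominator *B4galt5* (-0.47) was within 1.5 times and *B4galt3* (0.586) was just past it, and without the 20 most abundant genes *B4galt6* (-0.589) was just past it on the lower side. In both libraries *B4galt1* was the most abundant of the family, with 94.1 and 125.7 RPKM against at most 17.2 RPKM in WT (*B4galt5*) and 21.6 RPKM in *Igfbp7*-/- (*B4galt3*) for the others.

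*Cel* and *Folr1* had ratios close to that of *Lalba*. *Cel* encodes the bile-salt-stimulated lipase of milk, which the exocrine pancreas also secretes, and has 11 exons on the minus strand of chromosome 2 (chr2:28411315-28418923). It had 17476 reads in WT (509.1 RPM) and 7826 in *Igfbp7*-/- (223.5 RPM), lower by 2.28 times (log2 ratio -1.19, -1.24 to -1.13). None of 12 pancreatic acinar markers reached 1 RPM, and 8 had no read in either library. Their summed level was 1.602 RPM in WT against 1.46 RPM in *Igfbp7*-/-. The source of the *Cel* reads was not tested. *Folr1* encodes the folate receptor that binds folate at the cell surface and lies on the minus strand of chromosome 7 (chr7:109006845-109019302), with 7 exons in transcript Folr1-003. *Folr1* was the least abundant of the 7 genes in RPM, with 4759 reads in WT (138.6 RPM) and 2187 in *Igfbp7*-/- (62.5 RPM), lower by 2.22 times (log2 ratio -1.15, -1.26 to -1.05). Of the 21 pairs among the 7 genes, only the 3 pairs between *Lalba*, *Cel* and *Folr1* had counting intervals of their ratios that overlapped. The difference in log2 ratio was 0.10 between *Lalba* and *Cel* (0.02 to 0.18), 0.07 between *Lalba* and *Folr1* (-0.05 to 0.18) and -0.04 between *Cel* and *Folr1* (-0.15 to 0.08). Among the 3 pairs only the interval of *Lalba* and *Cel* excluded no difference, and that narrowly. The intervals of the 21 pairs take read pairs as independent and were not adjusted for their number, so a difference between *Lalba* and *Cel* is uncertain.

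Other lipases did not share 1 direction, and calls both ways were common among all genes measured (21.4% higher and 23.0% lower). Of 6 lipases that were measured, *Lipg* (endothelial lipase, 172.6 and 57.2 RPM, log2 ratio -1.59) and *Lpl* (lipoprotein lipase, 815.6 and 341.8 RPM, -1.25) were lower. *Pnpla2* (triglyceride lipase of lipid droplets, 96.2 and 155.5 RPM, 0.69) was higher and 3 stayed within 1.5 times. Without the 20 most abundant genes *Pnpla2* (0.55) was within 1.5 times, and with reads on listed genes as the denominator *Lipe* (hormone-sensitive lipase, 0.74 against 0.55 in deposited RPM) was higher as well. The other folate genes were weakly expressed. The carriers *Slc25a32* (9.12 and 9.14 RPM), *Slc19a1* (5.62 and 4.998 RPM) and *Slc46a1* (3.03 and 3.03 RPM) stayed within 1.5 times, and *Folr2* had 8 reads in WT and 4 in *Igfbp7*-/-.

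*Ltf* was the only one of the 7 genes that was higher by 1.5 times in deposited RPM. It encodes lactoferrin, an iron-binding antimicrobial protein of milk that is also stored in the granules of neutrophils, and has 17 exons on the plus strand of chromosome 9 (chr9:110921796-110945270). It had 12666 reads in WT (369.0 RPM) and 59931 in *Igfbp7*-/- (1711 RPM), higher by 4.64 times (log2 ratio 2.21, 2.17 to 2.25), at the 98.9th percentile of all genes measured. *Ltf* took 1.18% of the reads on the 7 genes in WT (1.15 to 1.21%) and 13.98% in *Igfbp7*-/- (13.8 to 14.1%). In RPKM it moved from rank 263 to rank 37 among protein-coding genes, and among the 7 genes it stood below *Cel* in WT and above *Lalba* in *Igfbp7*-/-.

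Neutrophil markers did not move with *Ltf*. Of 14, 6 were measured, 4 of them were lower in *Igfbp7*-/- and 2 stayed within 1.5 times, against 23.0% lower among all genes measured. The summed level of all 14 was 48.0 RPM in WT and 37.8 in *Igfbp7*-/-. Which cells gave the *Ltf* reads was not tested. *Cebpe*, which granulocyte precursors need to make secondary granules, and *Fcnb* had no read in either library, and *Ngp*, another granule protein, had 342 and 206 reads. *S100a8* (17.3 and 21.2 RPM, log2 ratio 0.29) stayed within 1.5 times and *S100a9* (11.6 and 4.83 RPM, -1.24) was lower. Of 3 other genes of the transferrin family and its receptor that were measured, *Trf* (serum transferrin, which the mammary gland also secretes, 7628 and 9594 RPM, log2 ratio 0.33) stayed within 1.5 times, *Tfrc* (transferrin receptor, 126.5 and 76.0 RPM, -0.73) was lower and *Mfi2* (melanotransferrin) was higher on 16 and 54 reads (1.54). With reads on listed genes as the denominator *Tfrc* (-0.55) and *Ngp* (-0.57 against -0.75 in deposited RPM) were within 1.5 times.

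**Figure D3:**
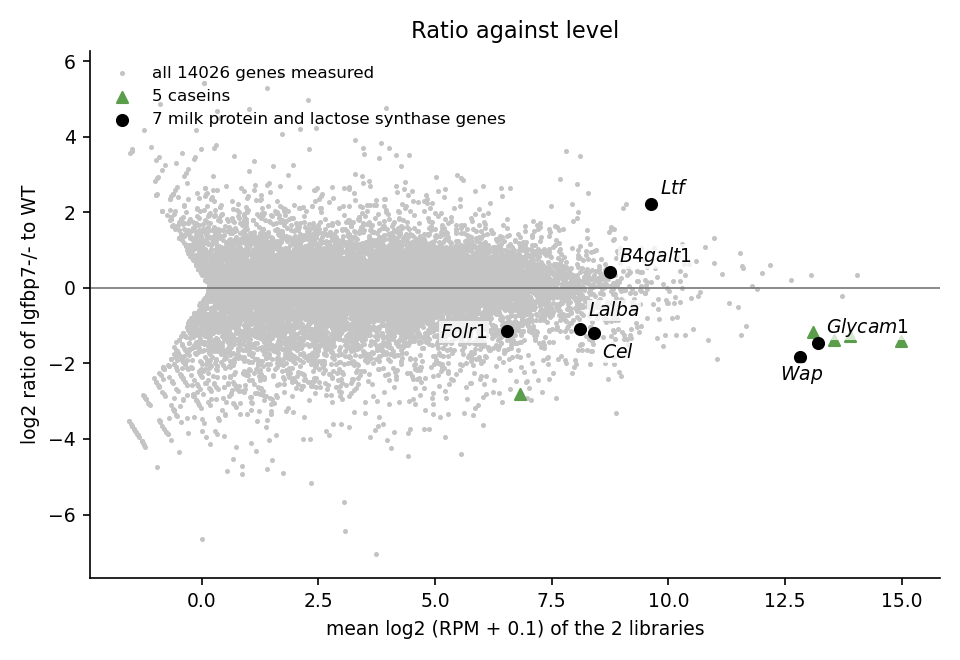
Log2 ratio of *Igfbp7*-/- to WT (y axis) against the mean log2 of RPM with 0.1 added (x axis) for all 14026 genes measured (grey), the 5 caseins (green triangles) and the 7 genes (black, named). *Wap* and *Glycam1* lie among the most abundant genes beside the caseins, while *Ltf* lies at the upper edge of the cloud with a ratio of 2.21.

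The ranking of the 7 genes by RPKM differed between the libraries below the first 2 places. In WT the order was *Glycam1*, *Wap*, *Lalba*, *Cel*, *Ltf*, *Folr1* and *B4galt1*. In *Igfbp7*-/- it was *Glycam1*, *Wap*, *Ltf*, *Lalba*, *B4galt1*, *Cel* and *Folr1*. The closest neighbours in these orders, *Glycam1* and *Wap* in WT, *Folr1* and *B4galt1* in WT (ratio 1.13, 1.08 to 1.19) and *B4galt1* and *Cel* in *Igfbp7*-/- (1.15, 1.11 to 1.19), still differed by more than counting error. An order by RPKM also rests on the gene lengths used, which these intervals leave out. The deposited values imply 562 bases for *Wap* and 1303 for *Folr1*, where the annotated transcripts have 551 and 1383. The order of such close neighbours is therefore uncertain, and without replicates the spread between animals is not known.

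Relative to the caseins, the sum of the 7 genes depended on *Ltf*. The reads on all 7 were 28.5% of the reads on the 5 caseins in WT and 28.4% in *Igfbp7*-/-, a log2 change of -0.006 (-0.014 to 0.003). Without *Ltf* they were 28.2% in WT and 24.4% in *Igfbp7*-/-, a log2 change of -0.21 (-0.21 to -0.20), which is lower by more than counting error. Per casein read, *Wap* was lower (log2 change -0.48, -0.50 to -0.47) and *Glycam1* slightly lower (-0.12, -0.13 to -0.11), whereas *Cel* (0.16, 0.10 to 0.21), *Folr1* (0.20, 0.09 to 0.30) and *Lalba* (0.26, 0.20 to 0.32) were slightly higher. *B4galt1* (1.76) and *Ltf* (3.56) were higher per casein read by far more. All 5 caseins were lower in *Igfbp7*-/- in RPM, with log2 ratios of -2.82 for *Csn1s2b*, -1.41 for *Csn2*, -1.38 for *Csn3*, -1.26 for *Csn1s1* and -1.18 for *Csn1s2a*. By point value this range holds *Wap*, *Glycam1* and *Cel* but not *Folr1* and *Lalba*. *Wap* and *Glycam1* fall inside it only through *Csn1s2b*. The counting intervals of *Cel* (-1.24 to -1.13) and *Folr1* (-1.26 to -1.05) both hold the value of *Csn1s2a*, so these 2 genes are not set apart by it.

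**Figure D4:**
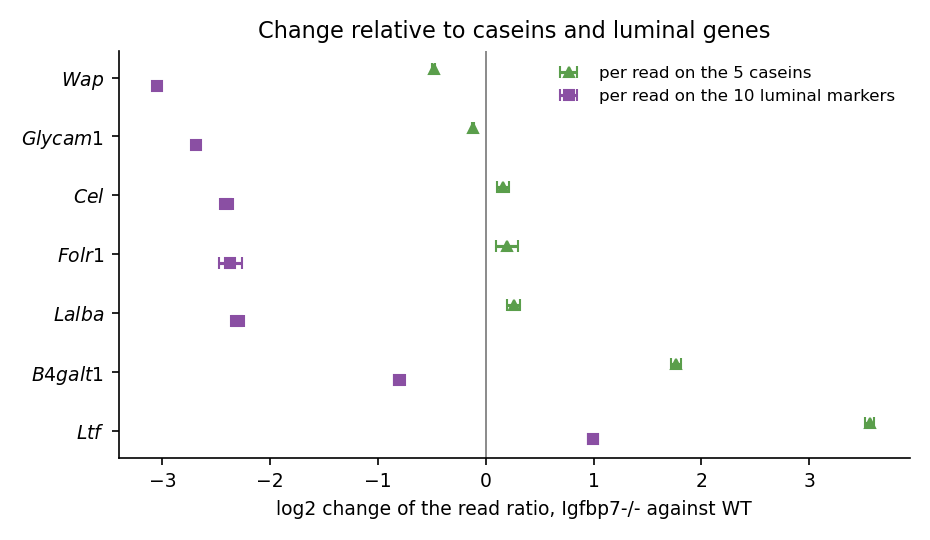
Log2 change, *Igfbp7*-/- against WT, of each gene's reads per read on the 5 caseins (green triangles) and per read on the 10 luminal markers (purple squares), with 95% counting intervals. Per casein read the 5 lower genes lie between -0.48 and 0.26, and per luminal marker read they lie between -3.05 and -2.30, with *Ltf* above 0 on both scales.

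Markers of the cell types in the preparation moved as well. The shares among all genes measured were 21.4% higher and 23.0% lower. Of 10 luminal markers 7 were higher in *Igfbp7*-/- and 3 within 1.5 times, with summed levels of 1880 and 4378 RPM. *Krt8* (268.1 and 789.0 RPM) and *Krt18* were among the higher ones, while *Elf5*, a regulator of secretory cells, had 137.3 and 95.9 RPM (log2 ratio -0.52, and -0.66 without the 20 most abundant genes). Of 10 basal markers 9 were lower, with summed levels of 3834 and 1223 RPM, for example *Acta2* (1052 and 226.7 RPM). Of 9 endothelial markers measured 7 were lower (1639 and 581.5 RPM for the list of 12), and of 11 lymphocyte markers measured 8 were lower and 1 higher (84.2 and 29.1 RPM for the list of 12). The higher lymphocyte marker, on 39 and 63 reads, was within 1.5 times with a pseudocount of 1 RPM. Only 2 of the lymphocyte markers reached 10 RPM. The part of these shifts in the levels of the 7 genes was not tested. Per luminal marker read, *Wap* (-3.05), *Glycam1* (-2.69), *Cel* (-2.41), *Folr1* (-2.37), *Lalba* (-2.30) and *B4galt1* (-0.80) were all lower in log2 terms, and *Ltf* was higher (0.99, 0.95 to 1.04). With *Krt18* alone in place of the 10 markers the value of *Ltf* was -0.015 (-0.076 to 0.046). For *Glycam1*, the high endothelial genes *Chst4* (5 reads in WT and 0 in *Igfbp7*-/-), *Fut7* (4 and 10 reads) and *Ccl21a* (0 and 1 read) were near 0 in both libraries, and *Madcam1* had 10.8 and 1.71 RPM. The source of the *Glycam1* reads was not tested.

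The proteins most closely related to WAP varied in both directions, as did all genes measured (21.4% higher and 23.0% lower). Of 22 symbols of genes with WAP-type domains, 19 matched a listed gene (Wfdc18, which did not, is another symbol of *Expi*, which did), 5 were measured, 7 had no read in either library, and of those measured 2 were higher, 2 lower and 1 within 1.5 times. *Wfdc12* (31.9 and 2.40 RPM, log2 ratio -3.68) and *Slpi*, a protease inhibitor of epithelial secretions (64.4 and 33.7 RPM, -0.93), were lower. *Expi*, an extracellular protease inhibitor (396.3 and 623.1 RPM, 0.65), was higher, and *Wfdc3* (57.3 and 50.3 RPM, -0.19) was within 1.5 times. Without the 20 most abundant genes *Expi* (0.51) was within 1.5 times as well. *Wfdc2*, the other higher gene, reached 5.71 RPM and lies outside the rule for named genes. Per length, *Expi*, the most abundant of the 5, had 698.9 RPKM in WT and 1099 RPKM in *Igfbp7*-/-, far below *Wap* in both.

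Other soluble proteins of milk were split as well. Of 29 such genes 28 were measured, and 8 were higher, 10 lower and 10 within 1.5 times, with a median log2 ratio of -0.0065. Calls in both directions were also common among all genes measured, with 21.4% higher and 23.0% lower. The highest ratios among those that reached 10 RPM were those of *Saa3*, an acute phase protein (84.3 and 381.2 RPM, log2 ratio 2.18), *Clu*, clusterin (253.0 and 744.6 RPM, 1.56), *Cp*, the copper-binding ceruloplasmin (187.9 and 404.4 RPM, 1.11), and *C3*, a complement component (346.7 and 714.3 RPM, 1.04). The lowest ratios were those of *Egf*, a growth factor (12.3 and 1.94 RPM, -2.60), *Apoe*, an apolipoprotein (162.2 and 50.9 RPM, -1.67), *Lyz2*, lysozyme (66.9 and 24.1 RPM, -1.47), and *Pthlh*, a hormone that mobilises calcium (10.1 and 3.66 RPM, -1.45). Of 7 genes of the lysozyme family, *Lyz2* and *Lyz1* were the 2 measured. The reads of *Lyz2* are uncertain, since *Lyz1* (1.22 and 1.43 RPM) is a near-identical copy and it is not stated how reads that map to both were counted. Of these 8 genes, *Saa3* had the log2 ratio nearest to that of *Ltf*.

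**Figure D5:**
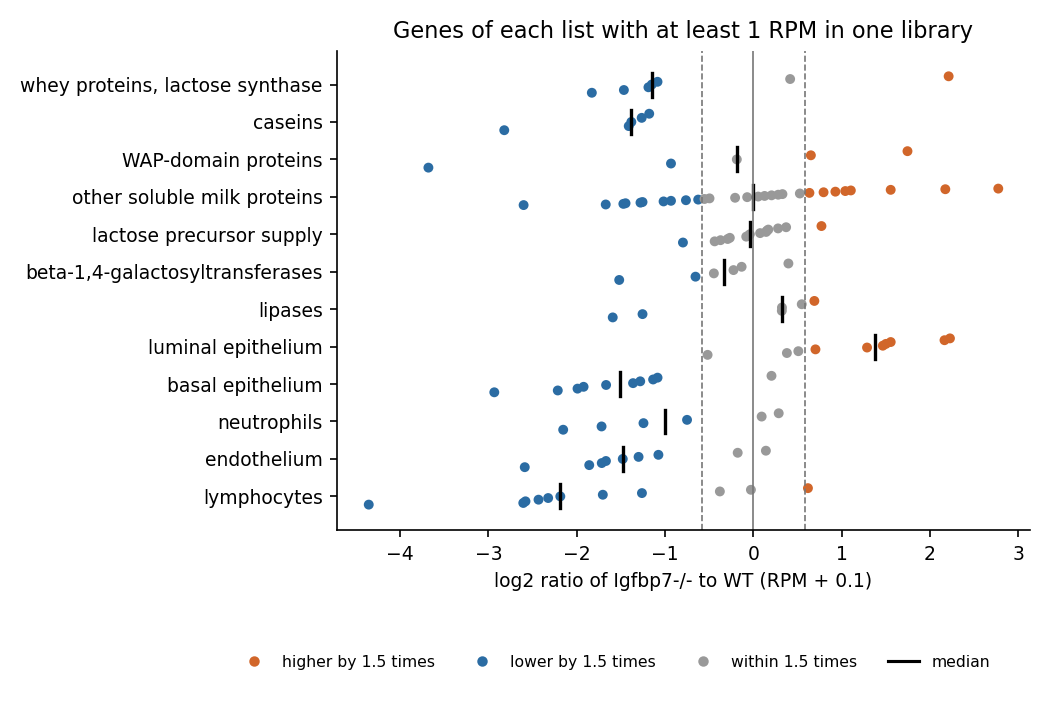
Log2 ratio of *Igfbp7*-/- to WT in RPM with 0.1 added (x axis) for each gene measured, by gene list (rows), coloured by whether it was higher, lower or within 1.5 times, with a black bar for the median. The caseins and 5 of the 7 whey and lactose synthase genes lie to the left of the lower limit, the list labelled lactose precursor supply clusters around 0, and the luminal list has its median at 1.38.

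Among 1681 other genes that reached 100 RPM in either library, those nearest to each of the 7 genes in log2 ratio were found over the 2 libraries, which is a likeness of 1 ratio only. Nearest to *Ltf* were *Saa2*, an acute phase protein (113.3 and 528.9 RPM, log2 ratio 2.22), and *Krt18* (2.23). The reads of *Saa2* are uncertain, since *Saa1* is a near-identical copy. Nearest to *Wap* were *Ccl4* and *Ptx3* (both -1.83), and nearest to *Glycam1* were *Tapbp* and *Cdh3* (both -1.47). *Krt17* and *Myadm* were nearest to *Lalba*, *Kif13a* and *Fam101b* to *Cel*, *Il13ra1* and *H2-Gs10* to *Folr1*, and *Foxo1* and *Riok3* to *B4galt1*.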

How the data were processed

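Poly(A) RNA of lineage-depleted mammary cells was sequenced as paired ends on a SOLiD instrument, 1 library per genotype. Per the methods, the authors mapped the reads with a Bowtie pipeline in GeneSifter, allowing at most 3 mismatches, and filtered mitochondrial, ribosomal and small nuclear RNA. The submitters' processing notes name Bowtie 0.12.3, SAMtools 0.1.15 and the mouse build mm9, whereas the methods name a human build. The gene annotation and the treatment of reads that map to several places are not given in the sources used here. Ribosomal RNA still took 2.95% (WT) and 3.15% (*Igfbp7*-/-) of mapped reads, and 50 rows without a symbol were left out. The count deposited for each gene is a raw number of reads. The deposited RPM scales that count to the mapped reads of the library, and the deposited RPKM further scales it to a gene length that the authors set. Reads outside the listed genes therefore lower every RPM.

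Groups were taken from the sample labels. Ratios were computed from RPM with 0.1 RPM added, for genes that reached 1 RPM in either library (measured genes), and called at 1.5 times. No test was possible with 1 library per group. Low counts were mostly even (75.8% in WT and 74.1% in *Igfbp7*-/-), so the Clopper-Pearson and Wilson intervals (95%) used counts divided by 2. A single read equals 0.0291 RPM (WT) or 0.0286 RPM (*Igfbp7*-/-), and 19160 and 18910 genes had reads. The 7 genes and all gene lists were chosen with earlier results of these data known. Named were the 7 genes, in each list up to 4 genes per direction with the largest ratios among those that reached 10 RPM (or every measured gene in lists of at most 7), the 2 genes nearest in ratio to each of the 7, and the nearest measured gene on either side. Not every gene that meets the rule is printed. A few further list genes are named as defining markers or by role and were chosen after their values were seen. Promoters are those of RefSeq for GRCm38.p6 and were available for 6 of the 7 genes (not *Folr1*). They were placed on NCBIM37 by exact match, and gene positions are from the GENCODE annotation of that build.

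Alternatives were pseudocounts of 1 and 0.01 RPM, RPKM, no minimum or 10 RPM, reads on listed genes as denominator, edgeR TMM scaling, DESeq2 size factors, centred ratios, RPM without the 20 most abundant genes, a threshold of 2, *Csn2* or *Krt18* alone as reference, and single reads for the intervals. A denominator of listed reads that leaves out ribosomal and small nuclear RNA was added after the data had been seen, and so was the sum of the genes without *Ltf*. The scripts were tested on simulated data. Python 3.11.15, numpy 2.4.6, scipy 1.17.1, pandas 2.3.3, matplotlib 3.10.9, R 4.3.3, edgeR 4.0.16 and DESeq2 1.42.0 were used.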

Additional observations from a re-analysis of the deposited data

How the results depend on the processing

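Each of the 7 genes kept its direction under all 11 alternatives of scaling, pseudocount, minimum or unit, and all except *B4galt1* stayed on the same side of 1.5 times. The 11 are not independent checks. For genes this abundant a changed minimum left the ratios as they were, and the pseudocounts and RPKM moved them only slightly. The log2 ratios ranged from -1.97 to -1.63 for *Wap*, -1.61 to -1.27 for *Glycam1*, -1.33 to -0.99 for *Cel*, -1.29 to -0.95 for *Folr1*, -1.23 to -0.89 for *Lalba*, 0.27 to 0.62 for *B4galt1* and 2.07 to 2.41 for *Ltf*. With reads on listed genes as the denominator, 2 genes were higher, the median log2 ratio of the 7 genes was -0.96, the median of all genes shifted by 0.19 and 62.2% of all calls were higher (4248 higher, 2587 lower), against 48.2% with deposited RPM (3006 and 3231). Leaving ribosomal and small nuclear RNA out of that denominator, chosen after seeing the data, gave 2 genes, -0.95, 0.20 and 63.0% (4348 and 2551). Without the 20 most abundant genes the median was -1.29, the shift -0.14 and the share 37.6% (2328 and 3863). Without a minimum, 4741 genes were higher and 5279 lower, with a minimum of 10 RPM 1696 and 1672, and with a threshold of 2 1352 and 1936. *Ltf* per *Krt18* read changed by -0.015, against 0.99 per luminal marker read. Summed per casein read, the 7 genes changed by -0.006, and by -0.21 without *Ltf*. Of 360 list counts recomputed, 325 stayed within 1.5 times of the first value and 35 did not. No paired analysis was possible because each genotype had 1 library, and for the same reason no replicate could be left out.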

Other observations

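The nearest measured genes (at least 1 RPM in either library) on either side of the 7 genes were set beside them. *Cel* lay between *Ralgds*, 2.71 kb away (110.6 RPM in WT and 107.8 in *Igfbp7*-/-, log2 ratio -0.04), and *Gtf3c5*, 2.97 kb away (23.5 and 47.5 RPM, 1.01), of which the latter was higher in *Igfbp7*-/- while *Cel* was lower. *Wap* lay 5.42 kb from *Tbrg4* (24.7 and 33.6 RPM, 0.44) and 19.9 kb from *Ramp3* (15.6 and 8.71 RPM, -0.83). *Ltf* lay 12.1 kb from *Ccrl2* (83.2 and 46.3 RPM, -0.84) and 29.6 kb from *Rtp3* (1.22 and 0.29 RPM, -1.78), both lower in *Igfbp7*-/- while *Ltf* was higher. *Folr1* lay 10.5 kb from 3200002M19Rik (3.47 and 4.63 RPM, 0.41) and 20.1 kb from *Inppl1* (28.3 and 40.4 RPM, 0.51), neither of which was lower. The neighbours of *Lalba*, *B4galt1* and *Glycam1* lay at least 32.7 kb away. They were *Zfp641* (0.41 and 1.34 RPM, 1.51) and 2310037I24Rik (2.88 and 4.77 RPM, 0.71) for *Lalba*, *Smu1* (33.2 and 41.4 RPM, 0.32) and *Bag1* (37.7 and 35.2 RPM, -0.10) for *B4galt1*, and *Pde1b* (6.03 and 3.48 RPM, -0.77), on 1 side, for *Glycam1*.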
